A study of Mus musculus with 9 samples.

Results

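Retinas that lacked both Rb and p107 (Rb/p107 double knockout, DKO below) were compared with wild-type retinas (WT), with 3 Affymetrix arrays in each group, 6 of the 9 arrays of the series. The groups were taken from the sample titles. The other 3 arrays, of Rb knockout retinas (Rb KO), entered the shared estimate of the spread and a direct comparison with the DKO arrays. All mice carried the strain label C57Bl/6x129SvJ and were at postnatal day 8, and the genotype labels were wildtype, Rb KO and Rb/p107 DKO. The dissected retinas had been snap frozen, and the labels state an RNA integrity score above 8. The alleles, the driver of any Cre recombinase, the sex of the mice and whether retinas were pooled are not stated in the labels. The DKO retina may therefore have held cells with intact genes, and their share is not known. The series design calls each array a biological replicate. The p-values below set group differences against the spread between arrays, which was estimated over all 9 arrays and moderated across genes.

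Rb, encoded by Rb1, and p107, encoded by Rbl1, are pocket proteins that bind E2F transcription factors and hold back the genes for DNA replication and cell division. Loss of this restraint lets cells that should leave the cell cycle keep expressing those genes. In the early postnatal mouse retina the last progenitors are finishing their divisions, and rods, bipolar cells and Müller glia, the late-born cells, are maturing. Rods and cones then switch on the genes of light detection under Crx, Otx2 and, in rods, Nrl.

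The values were log2 RMA summaries, so a difference of 1 is a change of 2-fold. A gene was read from its brightest probe set, which gave 24259 genes, and was counted as detected on an array where it exceeded the level under which 95% of negative control probe sets fell, which lay between 7.94 and 8.50. WT arrays had 28.5% to 36.4% of genes above that level and DKO arrays 28.3% to 30.9%. Where every array of the lower group failed it, the change is given as a lower bound ("at least"), because the lower level was not measured. Genes of chromosomes 1 to 3 were nearly all not analysed here, with 5, 5 and 3 protein-coding genes tested, and Rbl1 was among them. DKO replicate 2 stood apart from the other arrays. Xist, the RNA of the inactive X chromosome, was 12.04 and 11.98 in DKO replicates 1 and 3 and 5.47 in replicate 2, against 11.44 to 11.91 in WT. Eif2s3y, a gene of the Y chromosome, was 9.12 in DKO replicate 2 and 4.54 to 4.77 in the other 5 arrays. The same array had the highest level of lens crystallins, so the lens results and some others are given below with and without it. Over all genes the DKO arrays correlated at 0.997 to 0.998 with each other and at 0.972 to 0.980 with the WT arrays.

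The promoters below show letters found in front of some members of the 2 gene groups with the largest shifts. Each promoter shown holds a match, and the shares over each group are given further below. They are the 160 bases before the RefSeq transcription start (GRCm38.p6), written 5′ to 3′ along the gene. The first set belongs to cell-cycle genes that rose in the DKO retina. Capitals mark E2F letters (TTTCCCGC, TTTGGCGC, TTTCGCGC or TTTGCCGC) or the CHR letters (TTTGAA, the cell-cycle homology element of mitotic genes), on either strand. In Mcm5 the 2 E2F matches overlap on opposite strands. Mcm5 encodes a subunit of the replicative helicase, Cdc6 loads it, Cdk1 is the kinase that starts mitosis and Mki67 encodes the proliferation marker Ki-67.
Mcm5, chr8:75109349-75109508, plus strand: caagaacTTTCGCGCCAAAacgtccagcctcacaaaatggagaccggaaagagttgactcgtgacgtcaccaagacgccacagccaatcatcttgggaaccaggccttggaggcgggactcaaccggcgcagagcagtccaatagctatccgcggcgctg
Cdc6, chr11:98907991-98908150, plus strand: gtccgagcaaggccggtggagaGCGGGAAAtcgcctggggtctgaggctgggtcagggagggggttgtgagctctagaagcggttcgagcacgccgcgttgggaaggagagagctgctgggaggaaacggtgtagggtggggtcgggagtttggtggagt
Cdk1, chr10:69352913-69353072, minus strand: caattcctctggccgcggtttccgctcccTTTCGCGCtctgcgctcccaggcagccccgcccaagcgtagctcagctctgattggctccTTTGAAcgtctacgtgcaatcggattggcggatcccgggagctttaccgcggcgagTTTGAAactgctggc
Mki67, chr7:135716380-135716539, minus strand: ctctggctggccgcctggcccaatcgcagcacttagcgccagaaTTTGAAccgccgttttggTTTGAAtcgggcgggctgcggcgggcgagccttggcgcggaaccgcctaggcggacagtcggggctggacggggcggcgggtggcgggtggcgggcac

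The second set belongs to photoreceptor genes that fell. Capitals mark TAATCC or its complement GGATTA, letters that the photoreceptor factor Crx is known to bind. Crx encodes that factor, Cngb1 a subunit of the rod channel gated by cyclic GMP, Aipl1 a chaperone of phosphodiesterase 6 and Gucy2f a guanylate cyclase that makes cyclic GMP. The 8 genes shown were chosen after their values had been seen.
Crx, chr7:15879956-15880115, minus strand: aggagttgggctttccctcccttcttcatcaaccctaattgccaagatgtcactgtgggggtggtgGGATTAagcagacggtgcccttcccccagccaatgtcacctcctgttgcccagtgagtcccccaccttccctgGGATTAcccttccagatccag
Cngb1, chr8:95306586-95306745, minus strand: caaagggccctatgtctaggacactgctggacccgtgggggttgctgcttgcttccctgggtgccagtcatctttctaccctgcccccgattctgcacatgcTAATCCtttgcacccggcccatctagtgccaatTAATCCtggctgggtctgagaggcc
Aipl1, chr11:72037510-72037669, minus strand: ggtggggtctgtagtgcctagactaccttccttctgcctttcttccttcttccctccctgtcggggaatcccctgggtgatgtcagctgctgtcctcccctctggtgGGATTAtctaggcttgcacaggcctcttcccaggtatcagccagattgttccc
Gucy2f, chrX:142196937-142197096, minus strand: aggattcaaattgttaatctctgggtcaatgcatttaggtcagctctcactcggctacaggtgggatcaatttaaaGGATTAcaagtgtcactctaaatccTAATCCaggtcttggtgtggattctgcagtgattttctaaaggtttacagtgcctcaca

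The shares of promoters with these letters were counted over 250 bases before the start, on both strands. Of 17431 promoters of tested genes, 2.34% held an E2F match, 14% a CHR match and 6.01% a Crx match. Among 333 promoters of genes called at least 2-fold higher and not dim in both groups, the shares were 10.8% for E2F, 18.02% for CHR and 4.20% for Crx. Among 273 promoters of genes called at least 2-fold lower and filtered alike, they were 0.733%, 9.89% and 20.5%. Among 3726 promoters of genes that were not called and not dim in both groups, they were 3.19%, 8.78% and 4.75%. The E2F letters stood in 8 of 42 promoters of the replication genes, 0 of 13 of dNTP synthesis, 2 of 26 of the kinetochore and mitotic kinase genes, 3 of 21 of the condensin, kinesin and cytokinesis genes and 4 of 23 of the repair genes. The CHR letters stood in 7, 2, 9, 11 and 1 promoters of the same groups, and in 3 of 32 of the rod genes and 4 of 14 of the cone genes. The Crx letters stood in 11 of the rod and 3 of the cone promoters, in 2 repair promoters and in 0 of the other 4 groups, and the E2F letters in 0 rod and 0 cone promoters. These matches describe letters and are not evidence of binding.

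Across the whole array, 7113 of 24259 genes (29.3%) differed between DKO and WT retina at an adjusted p under 0.05 in limma, 2960 higher (12.2%) and 4153 lower (17.1%). A change of at least 2-fold was met by 551 higher genes (2.27%) and 404 lower genes (1.67%), 3.94% of all genes together. The median difference over all genes was -0.06 on the log2 scale. Of the calls, 996 higher and 1676 lower were of genes dim in both groups, whose size was not measured. The count of lower calls fell to 2708 without DKO replicate 1. It fell to 2500 with a covariate for how well positive and negative control probe sets separated, a quality measure that was 0.932 to 0.954 in WT and 0.927 to 0.936 in DKO. The shares of 12.2% higher and 17.1% lower are the comparison for each count of list members between DKO and WT below. The plot of list members by group shows where these calls lay.

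**Figure D1:**
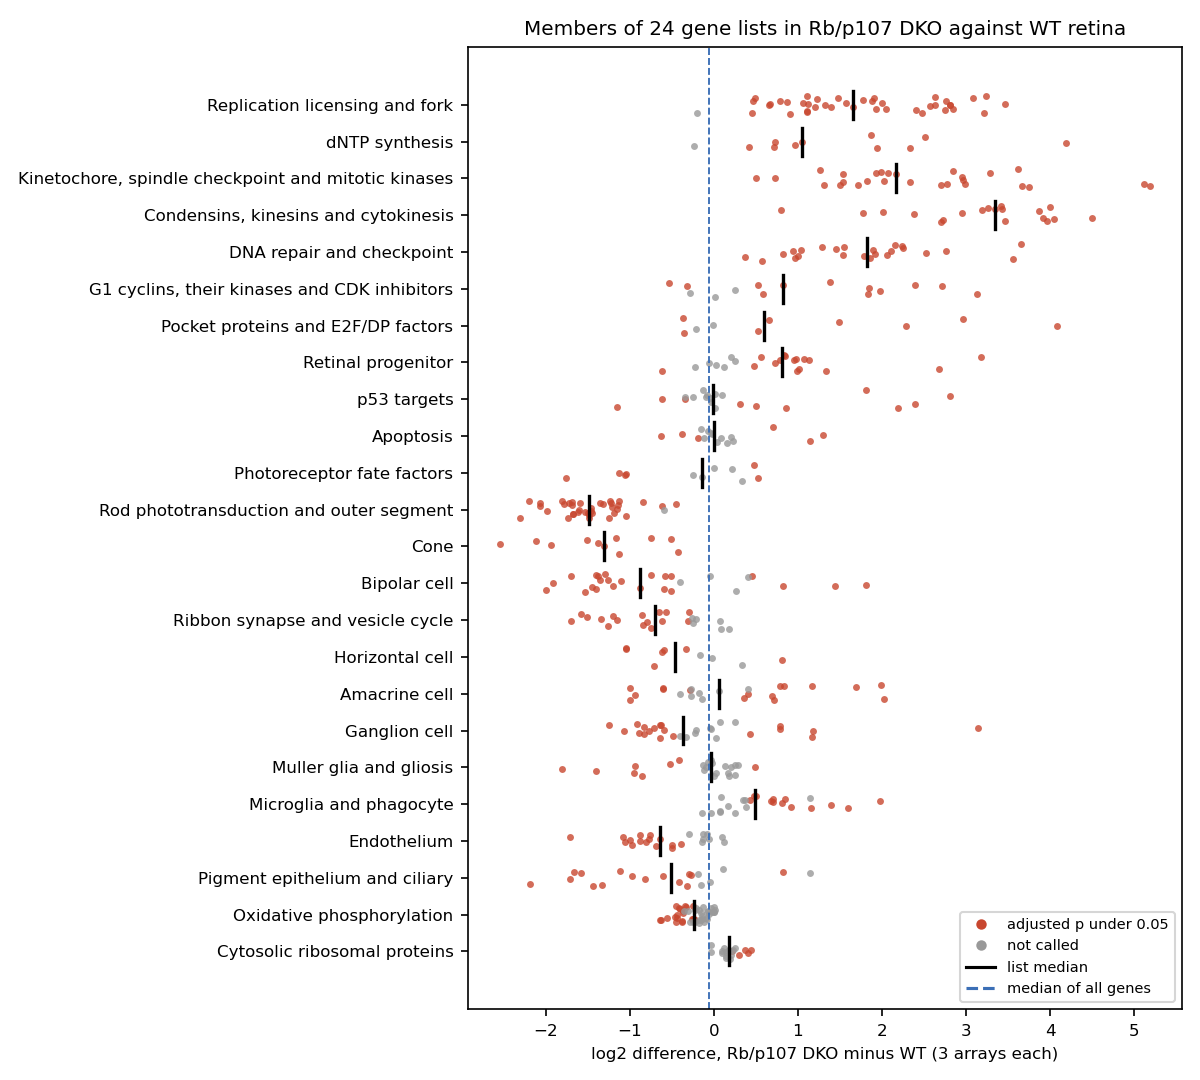
Each point is a gene, placed by its log2 difference between Rb/p107 DKO and WT retina (x axis, 3 arrays each), in 24 gene lists (y axis); red points passed an adjusted p under 0.05, black bars are list medians and the dashed line is the median of all genes at -0.06. The lists of replication and division genes lie to the right, with medians from 1.04 to 3.34, and the rod and cone lists to the left, at -1.48 and -1.30.

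The targeted genes were examined first. The brightest Rb1 probe set read 10.01, 10.19 and 10.46 in WT and 9.74, 10.001 and 9.85 in DKO, so WT replicate 1 and DKO replicate 2 nearly met. The difference was -0.36 ± 0.12 (SE), with an adjusted p of 0.0423 in limma. That call was lost without WT replicate 3 (-0.23, adjusted p = 0.131 in limma) and without DKO replicate 1 (-0.29, adjusted p = 0.153) or 3 (adjusted p = 0.106), WT replicate 2 (0.0569) or any Rb KO array (0.0521 to 0.0575). The other 2 probe sets named Rb1 were dim and had positive differences. That of the brighter of the 2, 0.35, was not called (adjusted p = 0.117 in limma over probe sets), and its groups overlapped. The dimmest read 3.47, 3.95 and 4.35 in WT and 6.15, 6.30 and 6.01 in DKO, and the mean of the 3 probe sets differed by 0.74. The labels do not say which exons were deleted, so the array does not check the knockout. Rbl2, which encodes the third pocket protein p130, read 9.06, 9.26 and 9.19 in WT and 8.91, 9.01 and 8.94 in DKO. Its difference of -0.22 missed the threshold (adjusted p = 0.055 in limma).

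The E2F factors themselves shifted. Of 13 listed pocket protein and E2F/DP genes only 10 were measured. Of these 10, 6 rose and 2 fell, against 12.2% and 17.1% of all genes, with a median of 0.59 (0.40 with 4 genes at their bound). The 2 falls were Rb1, whose call was unstable, and E2f3. E2f8, an atypical E2F that represses, read 6.36, 6.45 and 6.29 in WT and 10.57, 10.30 and 10.47 in DKO. All WT arrays were at background and all DKO arrays well above it, a rise of at least 4.92-fold (adjusted p = 1.21e-08 in limma). E2f7, its partner repressor, rose at least 2.37-fold, and E2f2, an activator, at least 1.75-fold. The dimerisation partners rose as well, Tfdp2 by 1.49 and Tfdp1 by 0.53. E2f4, the main E2F bound by pocket proteins in resting cells, differed by -0.01 (adjusted p = 0.969). E2f3 fell by 0.37 on the log2 scale, with an adjusted p of 0.159 once the control separation was a covariate. Of 4 measured genes tied to the DREAM and MMB complexes, 3 rose and Lin37 (0.17) did not pass. These complexes pair with pocket proteins or with B-Myb. The rises were Lin54 (0.64), Rbbp4 (0.47) and Dyrk1a (0.46), a kinase that is not a subunit.

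Genes of DNA replication rose almost as a block. Of 41 measured licensing and fork genes, 40 rose and 0 fell, and Rpa1, named after its value was seen, was the exception at -0.20 (adjusted p = 0.0733 in limma). The median was 1.66, or 1.06 over 37 genes with dim groups set at their bound. Mcm5, whose promoter is shown above, read 7.48, 7.79 and 7.26 in WT and 10.70, 10.50 and 10.59 in DKO. No WT array was above background, so the rise was at least 5.44-fold (adjusted p = 1.41e-07). Mcm2, another helicase subunit, rose at least 5.35-fold and Prim1, the primase, at least 4.08-fold. Cdc6 rose at least 2.57-fold, from 6.04 to 6.47 in WT to 9.36 to 9.66 in DKO. Clspn, a fork and checkpoint adaptor, and Pole, the leading-strand polymerase, rose at least 2.16-fold and 2.24-fold.

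Enzymes that make deoxynucleotides followed. Of 11 genes, 10 rose, with a median of 1.04 (0.97 with bounds). Rrm1, the large subunit of ribonucleotide reductase, was detected on all arrays. It read 9.29, 9.39 and 9.17 in WT and 11.33, 11.11 and 11.24 in DKO, with no overlap. This was a rise of 3.84-fold, 1.94 ± 0.12 (SE) on the log2 scale (adjusted p = 9.33e-07 in limma). Its partner Rrm2 read 6.32, 6.49 and 6.19 in WT and 10.62, 10.29 and 10.66 in DKO, at least 5.19-fold. Tyms and Tk1, which make and salvage thymidylate, rose at least 1.97-fold each. Cmpk1, a nucleotide monophosphate kinase, did not pass, at -0.24 (adjusted p = 0.0617).

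The 2 lists of mitosis genes had the highest medians, although most of their WT levels were not measured. All 27 measured genes of the kinetochore, spindle checkpoint and mitotic kinases rose, with a median of 2.17 (1.34 over 22 genes with bounds). All 19 condensin, kinesin and cytokinesis genes rose, with a median of 3.34 (1.52 with bounds). Mki67 read 7.0, 7.48 and 7.24 in WT and 12.53, 12.35 and 12.38 in DKO. Its WT arrays were at background and its DKO arrays were among the bright genes, a rise of at least 19.3-fold (adjusted p = 5.2e-09). Top2a, the topoisomerase that untangles chromosomes, read 6.12, 6.35 and 6.09 in WT and 11.43, 11.22 and 11.26 in DKO, at least 8.90-fold. Kif11, the motor that separates the spindle poles, rose at least 7.66-fold. Prc1, which bundles the central spindle, rose at least 5.73-fold, and Pbk, a mitotic kinase, at least 5.40-fold. Cdk1 read 6.25, 6.35 and 6.18 in WT and 9.73, 9.40 and 9.504 in DKO, at least 2.63-fold. In each of the replication, deoxynucleotide and mitosis lists the mean was lowest in DKO replicate 2 and highest in DKO replicate 1, and the call counts were the same without either array.

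All 24 measured DNA repair and checkpoint genes rose, with a median of 1.82, but 9 of them were dim in both groups and the median with bounds over the other 15 was 0.64. Chek1, the checkpoint kinase of stalled forks, read 5.59, 5.64 and 5.40 in WT and 9.29, 9.12 and 9.18 in DKO, at least 2.07-fold. Hmgb2, a chromatin protein of proliferating cells on the progenitor list, was detected on every array. It read 8.70, 8.95 and 8.52 in WT and 11.56, 11.25 and 11.42 in DKO, a rise of 6.42-fold (adjusted p = 1.41e-07 in limma). H2ax, the histone that marks broken DNA, rose by 1.91 and Tmpo, a lamina-associated protein, by 1.89. H2ac10 and Hist1h2aj, copies of histone H2A, rose by 2.27 and 2.09, and probes of such near-identical copies may read each other. Rnu11, an RNA of the minor spliceosome, rose by 1.97. Of 14 Polycomb and DNA methylation genes, 4 rose and 4 fell, with a median of -0.06. Ezh2, the Polycomb methyltransferase, rose by 1.48 and Hells, a chromatin remodeler, at least 2.72-fold. Dnmt3a, Ezh1, Tet3 and Jarid2 fell by 0.54, 0.54, 0.60 and 0.31 on the log2 scale, and Ezh1 had an adjusted p of 0.0558 with the control covariate.

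**Figure D2:**
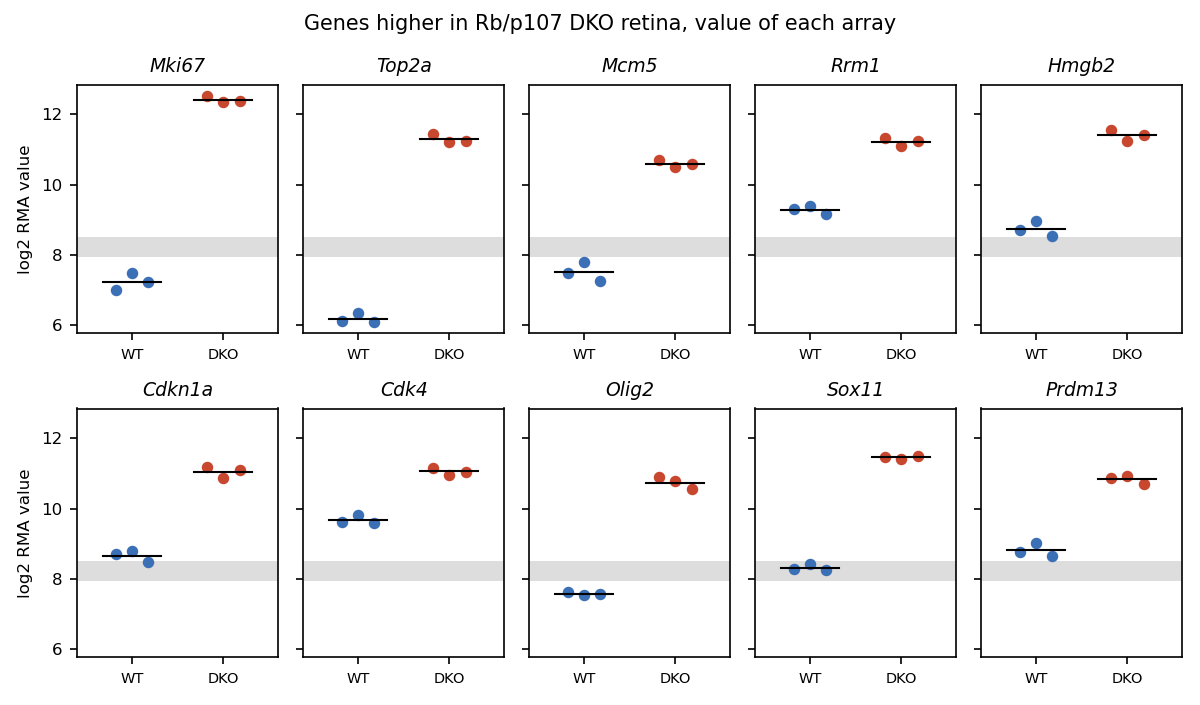
Points are the log2 RMA values (y axis) of the 3 WT and 3 Rb/p107 DKO arrays (x axis) for 10 genes named in the text, bars are group means and the grey band spans the background levels of the arrays, 7.94 to 8.50. Every DKO array lies above every WT array for each gene, and Mki67, Top2a and Mcm5 are within or below the band in WT.

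Kinases, cyclins and inhibitors of the G1 phase rose side by side. Of 15 measured genes, 10 rose and 2 fell, with a median of 0.83. Cdk2, the kinase of S-phase entry, rose at least 3.49-fold and Ccne1, its cyclin, at least 1.78-fold. Cdk4, its counterpart in early G1, read 9.61, 9.82 and 9.59 in WT and 11.16, 10.96 and 11.05 in DKO, a rise of 2.61-fold. The inhibitor Cdkn1a (p21) read 8.70, 8.79 and 8.48 in WT and 11.17, 10.88 and 11.09 in DKO. Its groups were far apart, a rise of 5.25-fold and 2.39 ± 0.11 (SE) on the log2 scale (adjusted p = 1.06e-07 in limma). Cdkn2c (p18) rose at least 2.67-fold, Cdkn1c (p57) by 0.83, Cdkn2d (p19) by 0.58 and Cdkn1b (p27) by 0.53. Cdkn2a, the tumour suppressor locus for p16 and Arf, was dim in all 6 arrays, at 6.24 to 6.59 in WT and 6.58 to 6.79 in DKO. Cdk6 fell at least 1.13-fold, from 8.53, 8.55 and 8.59 to 8.02, 8.10 and 7.93. The other lower call, Ccnd3, was dim in both groups, and the lower calls were 1 without WT replicate 1 or 2 and without DKO replicate 1 or 2.

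The 20 measured p53 targets did not move together. Their median was -0.01, with 7 higher and 3 lower calls, against 12.2% and 17.1% of all genes. Besides Cdkn1a, Mdm2, the ligase that turns p53 over, rose by 0.86. Ckap2 and Gtse1, which are also mitotic genes, rose at least 3.31-fold and 1.46-fold. Plk2 rose by 0.31, a call lost without DKO replicate 1 (adjusted p = 0.119), replicate 2 (0.0687), replicate 3 (0.126), WT replicate 1 (0.0698), WT replicate 3 (0.139) or Rb KO replicate 3 (0.0551). The lower calls were Tigar, a regulator of glycolysis, at least 1.77-fold, Gadd45a (-0.61) and Sesn1 (-0.35). The killers Bbc3 (-0.09) and Pmaip1 (-0.04) did not pass. Of 16 apoptosis genes, 3 were called higher and 3 lower, against the same shares of all genes. The caspase Casp2 rose by 1.29 and Apaf1, the apoptosome scaffold and an E2F target, by 0.71, while Trp73 rose at background levels. The inhibitor Xiap fell by 0.63 on the log2 scale. The calls of Cycs (-0.38) and Dffa (-0.19) were each lost without WT replicate 1 (adjusted p = 0.0664 and 0.0788), WT replicate 3 (0.0523 and 0.0643) or DKO replicate 1 (0.0765 and 0.131), and that of Dffa also without any other array of the fit except Rb KO replicate 1.

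Most measured genes of retinal progenitors were higher. Of 22 measured progenitor genes, 15 rose and 1 fell, with a median of 0.81. Olig2, a basic helix-loop-helix factor of late progenitors, read 7.61, 7.53 and 7.57 in WT and 10.89, 10.77 and 10.57 in DKO, a rise of at least 6.03-fold (adjusted p = 2.44e-07). All WT arrays were at background and all DKO arrays were far above it. Sox9, shared by progenitors and Müller glia, rose by 1.33, and Myc at least 1.33-fold. The 1 fall was Gadd45a. Smo, the transducer of Hedgehog signals, read 8.29, 8.69 and 8.48 in WT and 10.55, 10.44 and 10.41 in DKO, a rise of 3.95-fold. Sox11, a factor of newly born neurons on the ganglion cell list, read 8.27, 8.43 and 8.25 in WT and 11.46, 11.42 and 11.49 in DKO, a difference of 3.14 ± 0.18 (SE). Its relative Sox4 rose by 1.18 and Dcx, a microtubule protein of young neurons, by 0.78. Fewer cells of a type and less RNA per cell cannot be told apart in whole retina, here and in every group below.

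Rod genes fell as a group. Of 38 measured genes of rod phototransduction and the outer segment, 37 fell and 0 rose, against 17.1% of all genes, and 34 of the falls were at least 2-fold. The median was -1.48 (-1.45 with bounds). In all 38 genes every DKO array lay below every WT array, where 43.9% of all genes had groups that did not overlap. Rcvrn, the calcium sensor recoverin, read 11.77, 11.79 and 11.66 in WT and 9.01, 10.13 and 9.86 in DKO. The WT arrays were close together, while DKO replicate 1 was far below the other 2 DKO arrays. The difference was -2.07 ± 0.32 (SE), with an adjusted p of 0.000701 in limma.

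The other rod genes showed the same order of arrays. Grk1, the kinase that shuts off rhodopsin, read 11.66, 11.79 and 11.72 in WT and 9.24, 10.48 and 10.10 in DKO. Gucy2f read 9.94, 9.98 and 10.12 in WT and 7.24, 8.28 and 7.93 in DKO, a fall of at least 3.10-fold (adjusted p = 0.000273). Guca1b, its calcium-dependent activator, fell at least 3.16-fold. Nrl, the factor that commits cells to the rod fate, read 9.92, 10.01 and 9.90 in WT and 8.19, 8.57 and 8.48 in DKO, a difference of -1.53 ± 0.13 (SE). Prom1, needed to build the outer segment discs, fell by 1.501, and Rp1l1, Rdh12 and Nxnl1 by 1.73, 1.73 and 1.80 on the log2 scale. DKO replicate 1 had the lowest DKO value in 38 of 38 rod genes and DKO replicate 2 the highest in 37. The rod median was -1.62 without DKO replicate 2 and -1.302 without DKO replicate 1. Rgs9bp, the anchor of the complex that ends the light response, was the gene without a call, named after its value was seen, at -0.59 (adjusted p = 0.0798), and its groups did not overlap either.

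Cone genes fell as well, all 11 of 11 measured, with a median of -1.301 (-1.15 over 10 genes with bounds). Opn1mw, the green cone opsin, read 10.95, 10.95 and 10.81 in WT and 7.46, 9.10 and 8.53 in DKO, with replicate 1 at background. The difference was -2.54 ± 0.35 (SE), adjusted p = 0.000321 in limma. Opn1sw, the short-wave cone opsin, read 11.02, 11.16 and 11.04 in WT and 9.17, 9.87 and 9.68 in DKO, a fall of 2.83-fold. Pde6c, the cone phosphodiesterase, fell by 2.11, Arr3, the cone arrestin, by 1.301, and Thrb, the thyroid hormone receptor that sets the green opsin, by 1.13. Gngt2 was dim in both groups.

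The factors upstream of photoreceptor genes did not share 1 direction. Of 11 measured, 2 rose and 4 fell, with a median of -0.15. Crx read 12.25, 12.33 and 12.31 in WT and 10.99, 11.40 and 11.33 in DKO, a fall of 2.08-fold (adjusted p = 0.000112). Casz1, a late-acting rod factor, fell by 1.13 and Samd11 and Ankrd33, photoreceptor regulators, by 1.04 and 1.76. Rorb, which acts above Nrl, read 12.16, 12.40 and 12.44 in WT and 12.88, 12.78 and 12.75 in DKO and rose by 0.47. Neurod4 rose by 0.53. Otx2, which acts above Crx, differed by -0.15 (95% confidence interval -0.33 to 0.04, adjusted p = 0.217), and Prdm1, which holds cells in the photoreceptor path, by 0.22 (adjusted p = 0.0933).

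**Figure D3:**
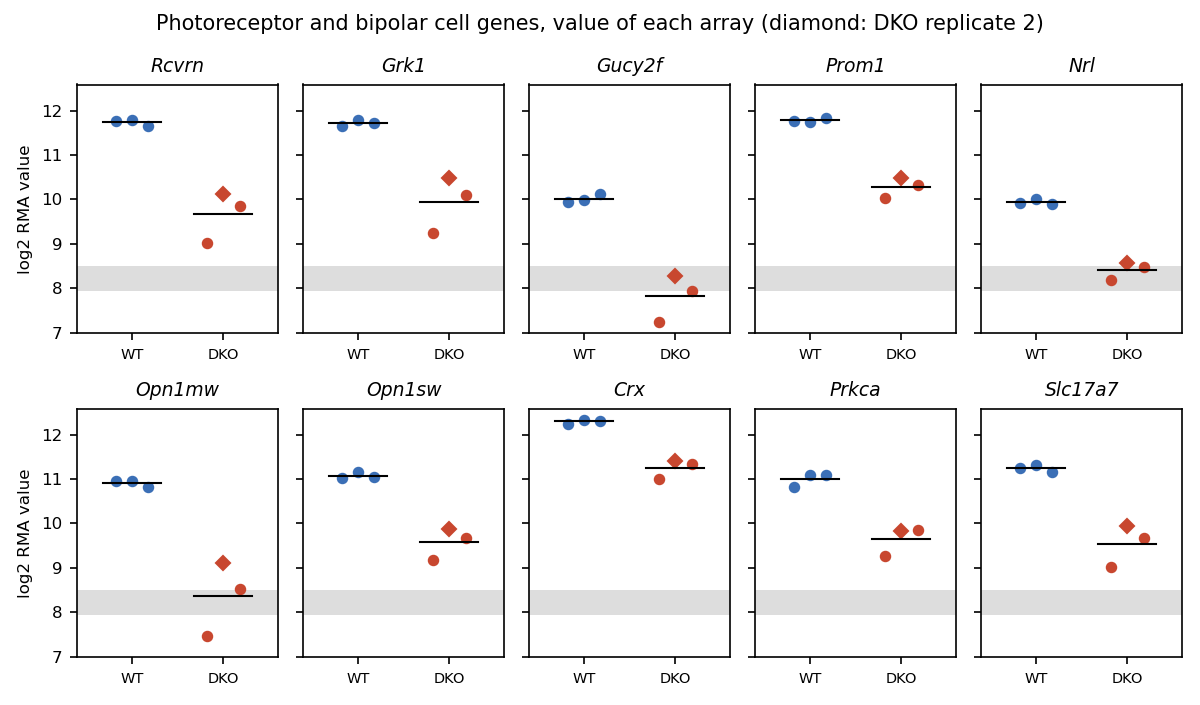
Points are the log2 RMA values (y axis) of the WT and Rb/p107 DKO arrays (x axis) for 10 photoreceptor, bipolar and synaptic genes, bars are group means, the diamond is DKO replicate 2 and the grey band spans the background levels, 7.94 to 8.50. WT arrays cluster tightly, and within DKO replicate 1 is the lowest and replicate 2 the highest for 9 of the 10 genes, as in Rcvrn (9.01 and 10.13).

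Most bipolar cell genes were lower. Of 27 measured, 19 fell and 4 rose, with a median of -0.87 (-0.41 over 25 genes with bounds). Prkca, the classic marker of rod bipolar cells, read 10.83, 11.10 and 11.09 in WT and 9.27, 9.82 and 9.86 in DKO, a fall of 2.55-fold (adjusted p = 0.00023). Sebox, a bipolar homeobox gene, fell at least 1.02-fold, and Nyx, of the light-response complex in bipolar dendrites, was dim in both groups. The 4 rises were transcription factors, Nfib (1.81), Nfix (1.44), Prdm8 (0.82) and Irx5 (0.46). Nfib read 8.21, 8.43 and 8.49 in WT and 10.13, 10.29 and 10.13 in DKO. The NFI factors act in late progenitors and Müller glia as well as in bipolar cells.

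Genes of the ribbon synapse and the synaptic vesicle cycle were lower. Of 22 measured, 16 fell and 0 rose, with a median of -0.70. The count was 10 with the control separation as a covariate. Slc17a7, the glutamate transporter of synaptic vesicles, read 11.24, 11.32 and 11.16 in WT and 9.02, 9.94 and 9.67 in DKO, a fall of 3.25-fold. Dmd, dystrophin, which anchors the photoreceptor terminal, fell by 1.34, Sv2b by 1.15, Syngr1 by 0.85 and Rims2 by 0.75 on the log2 scale.

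Genes of the inner retinal neurons moved in both directions. Of 23 amacrine genes, 10 rose and 6 fell, with a median of 0.06. Prdm13, a factor that directs amacrine fate, read 8.77, 9.03 and 8.64 in WT and 10.88, 10.93 and 10.71 in DKO, a rise of 4.06-fold (adjusted p = 1.9e-06). Barhl2, another amacrine factor, rose by 1.70 and Ebf3 by 1.16. Calb2, calretinin, read 11.69, 11.60 and 11.48 in WT and 10.42, 10.68 and 10.67 in DKO, a fall of 2.001-fold. Chat, Th and Slc5a7, genes of acetylcholine and dopamine transmission, were lower calls near background. Of 28 ganglion cell genes, 6 rose and 13 fell, but 4 fell with the control separation as a covariate. The rises included Sox11, Sox4, Ebf3 and Dcx, and the falls included the nicotinic subunit Chrna6 (-1.24), the synuclein Sncg (-0.84) and the factor Pou4f1, at least 1.15-fold. Of 10 horizontal cell genes, 6 fell, and 3 with that covariate. Septin4 and Vat1l each fell by 1.04 on the log2 scale, while Onecut2 rose at least 1.09-fold.

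Müller glia genes did not share 1 direction. Of 23 measured, 1 was called higher and 7 lower, with a median of -0.04, and 10 had a positive difference. The mean of the list was still lower in every DKO array, at 8.32 to 8.57 against 8.64 to 8.79 in WT. Of the 23, 7 were dim in both groups, 1 of the falls among them. With the control separation as a covariate 3 were higher and 4 lower. The 7 falls were Abca8a, Clu, Aqp4, Rlbp1, Dio2, Osmr and Slc1a3, of which Dio2, Osmr and Slc1a3 were named after their values had been seen. Clu, a secreted chaperone, read 10.56, 10.73 and 10.37 in WT and 8.90, 9.40 and 9.14 in DKO, a fall of 2.65-fold. Rlbp1, which binds retinaldehyde, fell by 0.94 and Abca8a by 1.81. Sox8 rose by 0.49. Gfap, the marker of reactive glia, read 7.86, 7.99 and 7.61 in WT and 7.94, 7.85 and 8.52 in DKO, with DKO replicate 3 and WT replicate 2 above background (difference 0.28, adjusted p = 0.225).

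Genes of microglia were higher, though mostly at low levels. Of 24 measured, 13 rose and 0 fell, with a median of 0.49, but 10 of the 13 were dim in both groups. The mean of the list was 6.73 to 6.80 in WT and 7.13 to 7.58 in DKO. Cd68, a lysosomal protein of phagocytes, read 7.15, 7.31 and 7.16 in WT and 9.31, 8.78 and 9.46 in DKO, at least 2.05-fold higher. C1qb, of the complement system, read 7.84, 7.97 and 7.76 in WT and 9.43, 9.21 and 9.70 in DKO, a difference of 1.59 ± 0.22 (SE). Markers that define microglia, Aif1, Cx3cr1, Tmem119 and Trem2, were dim in all 6 arrays and were not called. They were chosen after their values had been seen, and 22 of the 24 genes of the list had a positive difference. With only genes above the negative controls in at least 3 arrays, 2 of the 3 genes left of the list were called higher. Of 23 interferon genes, 19 were dim in both groups. Of the 23, 2 rose and 5 fell, against 12.2% and 17.1% of all genes. Without DKO replicate 1 the counts were 1 and 2, likewise without DKO replicate 2, and without WT replicate 2 they were 1 and 3. With the control separation as a covariate they were 1 and 0. The 2 rises also became 1 when WT replicate 1 or either of Rb KO replicates 1 and 2 was left out. Ifit2 read 7.43, 7.75 and 7.45 in WT and 8.81, 8.79 and 8.76 in DKO, at least 1.56-fold higher.

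Vessel and pigment epithelium markers were lower, though many lay at low levels. Of 23 endothelial genes, 15 fell, 9 of them dim in both groups. The median was -0.64, or -0.07 over 12 genes with bounds, 7 of them at a bound. With only genes above the negative controls in at least 3 arrays, 4 fell. Cldn5, of the blood-retina barrier, fell at least 1.65-fold and Mfsd2a, a lipid transporter of that barrier, at least 1.62-fold. Of 18 genes of pericytes, smooth muscle and fibroblasts, 10 fell and 1 rose. Of the 18, 12 were dim in both groups, 5 of the falls among them, and 2 fell with the filter on dim genes. Vtn fell by 1.89 on the log2 scale and Fbln1 rose by 1.05. Of 20 pigment epithelium genes, 14 fell and 1 rose, with a median of -0.51, or 0.00 over 11 genes with bounds. As 9 of the 11 were at a bound, and bounds not above 0 counted as 0, that 0.00 does not measure an absence of change. Of these falls, 6 were of genes dim in both groups, and 5 genes fell with the filter on dim genes. Ttr, a thyroxine carrier, read 9.38, 9.67 and 9.28 in WT and 7.66, 7.10 and 6.997 in DKO, at least 2.09-fold lower. Rgr, a retinal-binding opsin, and Pmel, of pigment granules, fell at least 2.46-fold and 1.43-fold. The list mean was 7.58 to 7.87 in WT and 7.03 to 7.10 in DKO. Carry-over of pigment epithelium in the WT dissections was not tested.

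**Figure D4:**
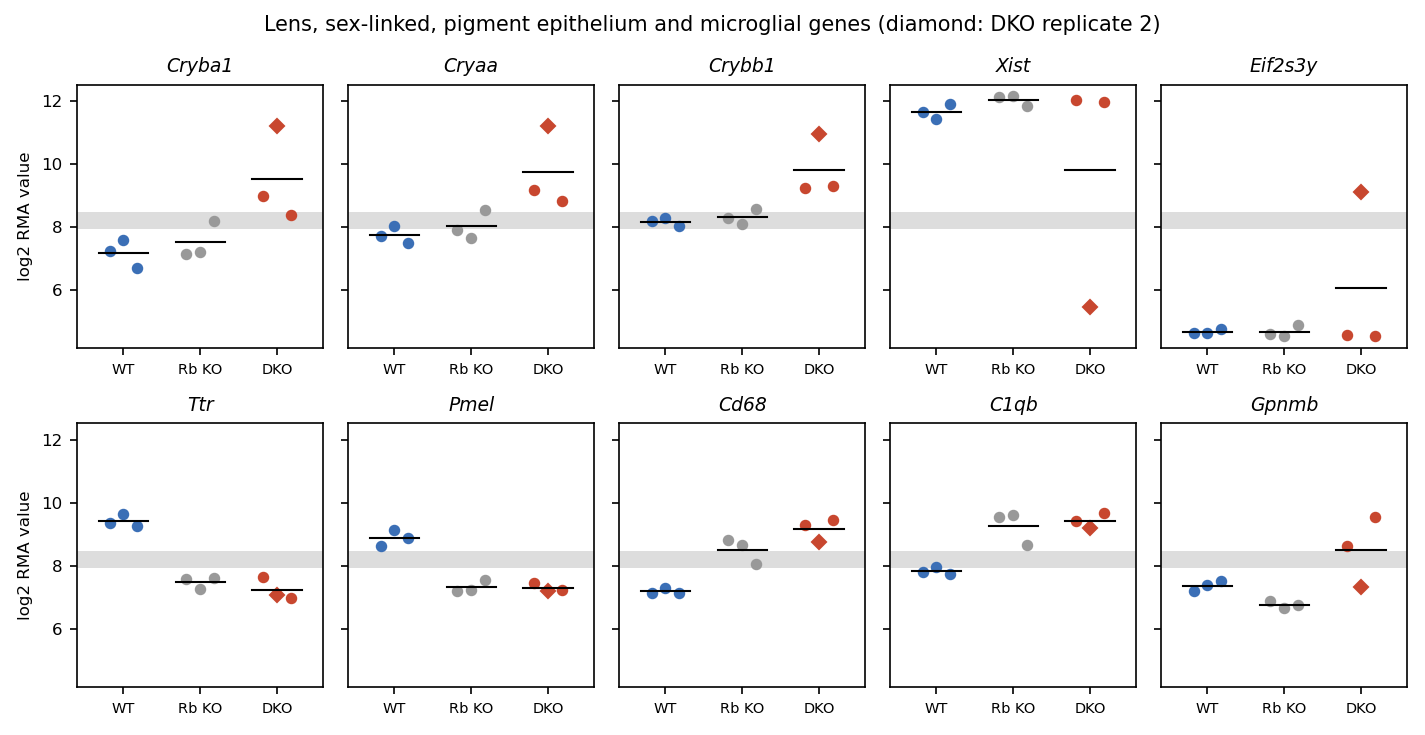
Points are the log2 RMA values (y axis) of the WT, Rb KO and Rb/p107 DKO arrays (x axis) for lens, sex-linked, pigment epithelium and microglial genes, bars are group means, the diamond is DKO replicate 2 and the grey band spans the background levels, 7.94 to 8.50. DKO replicate 2 has the highest crystallin values (Cryba1 11.20), the lowest Xist (5.47) and the only high Eif2s3y (9.12).

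Lens crystallins were higher in the DKO retinas and most of all in replicate 2. Cryba1 read 7.26, 7.61 and 6.72 in WT and 8.98, 11.20 and 8.41 in DKO, so replicate 2 stood well above the other DKO arrays. It was at least 2.61-fold higher, with a fitted difference of 2.33, and 1.498 without DKO replicate 2 (adjusted p = 0.012 and 0.00871 in limma). Cryaa, Crybb1 and Crybb3 also rose, by 1.995, 1.65 and 1.14, and by 1.26, 1.09 and 0.68 without that array. Crygs was called higher but exceeded background in DKO replicate 2 only, at 8.97. The call of Crygs was lost without WT replicate 1 (adjusted p = 0.108), WT replicate 3 (0.105) or any Rb KO array (0.0508 to 0.0628), and that of Crybb3 without WT replicate 3 (0.0638). Of 14 lens genes, 5 rose, 1 fell and 7 were dim in both groups. The higher calls were 3 without WT replicate 3, and with the control separation as a covariate none passed. Cryab, which the retina also makes, fell by 0.63, a call lost without DKO replicate 1 (-0.39, adjusted p = 0.125), DKO replicate 3 (0.0601), Rb KO replicate 1 (0.0591), WT replicate 1 (0.0804) or WT replicate 2 (0.1). The part of lens tissue in these values was not tested. None of the 5 sex-linked genes was called between the groups.

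Genes of energy metabolism shifted by small amounts. Of 48 oxidative phosphorylation genes, 21 fell and 0 rose, with a median of -0.23. The count was 13 without WT replicate 1, without DKO replicate 1 or without DKO replicate 2, and 5 with the control separation as a covariate. Ndufa4 and Uqcrq fell by 0.55 and 0.64 on the log2 scale. Of 22 genes of glycolysis and lactate transport, 12 fell and 3 rose, and 3 fell with that covariate. The 3 rises became 1 without WT replicate 1, DKO replicate 1 or DKO replicate 3. Aldoc, an aldolase of glia and photoreceptors, fell by 1.10, Hk1, hexokinase, by 0.84 and Eno2, the neuronal enolase, by 0.75. Of 19 cytosolic ribosomal protein genes, 5 rose, with a median of 0.18, and the count was 3 without WT replicate 3 and 2 without DKO replicate 1 or 3. Of 24 immediate early genes, 7 rose and 4 fell, with 0 lower calls under the control covariate. Dusp1, a phosphatase induced by stress, read 7.98, 8.41 and 8.06 in WT and 9.72, 9.66 and 9.68 in DKO. Of 17 clock genes, 7 fell and 1 rose, and 4 fell without DKO replicate 1 or 3. Rora (-1.05), the dopamine receptor Drd4 (-1.83) and Bhlhe41, at least 1.63-fold lower, fell, while Clock (0.04) and Arntl (-0.13) did not pass.

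The direct comparison with Rb KO asked what differed when p107 was lost as well. Of 24259 genes, 617 (2.54%) passed in limma, 324 higher in DKO (1.34%) and 293 lower (1.21%). At least 2-fold differences were called for 116 genes (0.478%), of which 53 were higher (0.218%) and 63 lower (0.26%). The count was 302 without Rb KO replicate 1, 300 without Rb KO replicate 3, 271 without DKO replicate 1 and 253 without DKO replicate 3. Both mutants shared the same WT arrays, so their changes from WT are not compared as 2 results. Most cell-cycle genes did not pass this comparison, though most had a positive difference. This held for 34 of 41 replication genes and 27 of 27 kinetochore and mitotic kinase genes. It also held for 19 of 19 condensin, kinesin and cytokinesis genes, where the median difference over all genes was -0.0025. Of 41 replication genes 0 passed, with a median of 0.17, of 27 kinetochore and mitotic kinase genes 5 were higher, with a median of 0.35, and of 19 condensin, kinesin and cytokinesis genes 2 were higher, with a median of 0.41. The 5 became 0 without DKO replicate 1, DKO replicate 3 or Rb KO replicate 3, 1 without Rb KO replicate 1, 3 without WT replicate 3 and 8 without Rb KO replicate 2. The 2 became 0 without any of DKO replicates 1 and 3 and Rb KO replicates 1 and 3, and 8 without Rb KO replicate 2. Mki67 differed by 0.14 (95% confidence interval -0.14 to 0.43). Dlgap5, a spindle protein, read 9.09, 9.30 and 8.95 in Rb KO against 10.05, 9.74 and 9.98 in DKO, a difference of 0.81 (adjusted p = 0.00271). The calls of Tk1 (0.66), Cdc25c (0.73) and Cenpa (0.60) were each lost without DKO replicate 1 (adjusted p = 0.12, 0.0694 and 0.0961), DKO replicate 3 (0.0874, 0.0708 and 0.0548) or Rb KO replicate 3 (0.0814, 0.07 and 0.0795). Those of Cdc25c and Cenpa were also lost without Rb KO replicate 1 (0.0755 and 0.0711), and that of Tk1 without Rb KO replicate 2 (0.0672) or DKO replicate 2 (0.0598). Cdk6 was lower, at -0.72 (adjusted p = 0.00266).

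Of 22 progenitor genes, 1 was higher and 2 were lower in DKO than in Rb KO, with a median of 0.05. The 2 became 1 when any of replicates 2 and 3 of Rb KO or DKO was left out, and the 1 became 2 without Rb KO replicate 2. Neurog1, a neurogenic factor, read 7.55, 7.63 and 7.18 in Rb KO against 9.25, 8.73 and 8.87 in DKO, where it was above background on every array, and 6.57 to 6.65 in WT. It was at least 1.48-fold higher (adjusted p = 0.000274 in limma). Olig2 read 9.86, 10.02 and 9.28 in Rb KO, between WT and DKO, and the DKO arrays were 1.02 ± 0.16 (SE) higher (adjusted p = 0.00814). Barhl2 was 0.50 higher, with an adjusted p of 0.0473 that rose to between 0.0639 and 0.188 without any Rb KO or DKO array and to 0.0706 without WT replicate 3. Rnu11 and Pisd-ps3, an RNA of the minor spliceosome and a pseudogene, were 1.01 and 0.95 higher. Ifit2 was at least 1.32-fold higher in DKO.

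Of 11 photoreceptor fate factors, 4 were lower in DKO than in Rb KO (Prdm1, Otx2, Casz1 and Crx), 0 were higher and 7 did not pass, with a median of -0.18. Prdm1 read 10.36, 10.34 and 10.24 in Rb KO against 9.61, 9.41 and 9.27 in DKO, close to the 9.18 to 9.24 of WT. The difference was -0.88 ± 0.09 (SE), adjusted p = 0.000468. Otx2 read 11.19, 11.28 and 11.35 in Rb KO against 10.82, 10.70 and 10.59 in DKO, a difference of -0.57 (adjusted p = 0.00469). Casz1 was 0.66 below Rb KO on the log2 scale, with values of 9.55, 9.25 and 9.42 against 8.59, 8.85 and 8.82. Crx (-0.60) and the rod factor Nrl (-0.63) were also lower, and each call was lost without Rb KO replicate 1 (adjusted p = 0.0758 and 0.105), Rb KO replicate 3 (0.105 and 0.103), DKO replicate 1 (0.106 and 0.12), DKO replicate 3 (0.0806 and 0.0964) or WT replicate 3 (0.0505 and 0.0512). Of 38 rod genes 3 were lower and 0 higher, with a median of -0.09, and of 11 cone genes 3 were lower, with a median of -0.19. The counts were 0 and 1 when any of replicates 1 and 3 of Rb KO or DKO was left out. Dmd was 1.05 below Rb KO on the log2 scale and Egflam, pikachurin, a partner of dystroglycan at the photoreceptor synapse, 1.08 below.

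Other genes stood higher in Rb KO than in either group. Insm2, a zinc finger factor, read 7.45, 7.53 and 6.93 in WT, 9.41, 9.56 and 9.39 in Rb KO against 7.89, 7.71 and 7.90 in DKO. St14, a membrane protease, read 6.68 to 6.82 in WT, 8.76 to 9.16 in Rb KO and 7.21 to 7.48 in DKO. Both were above background only in the Rb KO arrays. Fabp7, a fatty acid carrier of progenitors and glia, read 10.12, 10.51 and 10.39 in WT, 11.91, 12.01 and 11.99 in Rb KO against 11.09, 10.70 and 10.90 in DKO, a DKO difference of -1.07 from Rb KO (adjusted p = 0.000903). Chrnb4, a nicotinic subunit, was 1.37 below Rb KO in DKO and Jun, an immediate early factor, 0.57 below, both on the log2 scale.

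**Figure D5:**
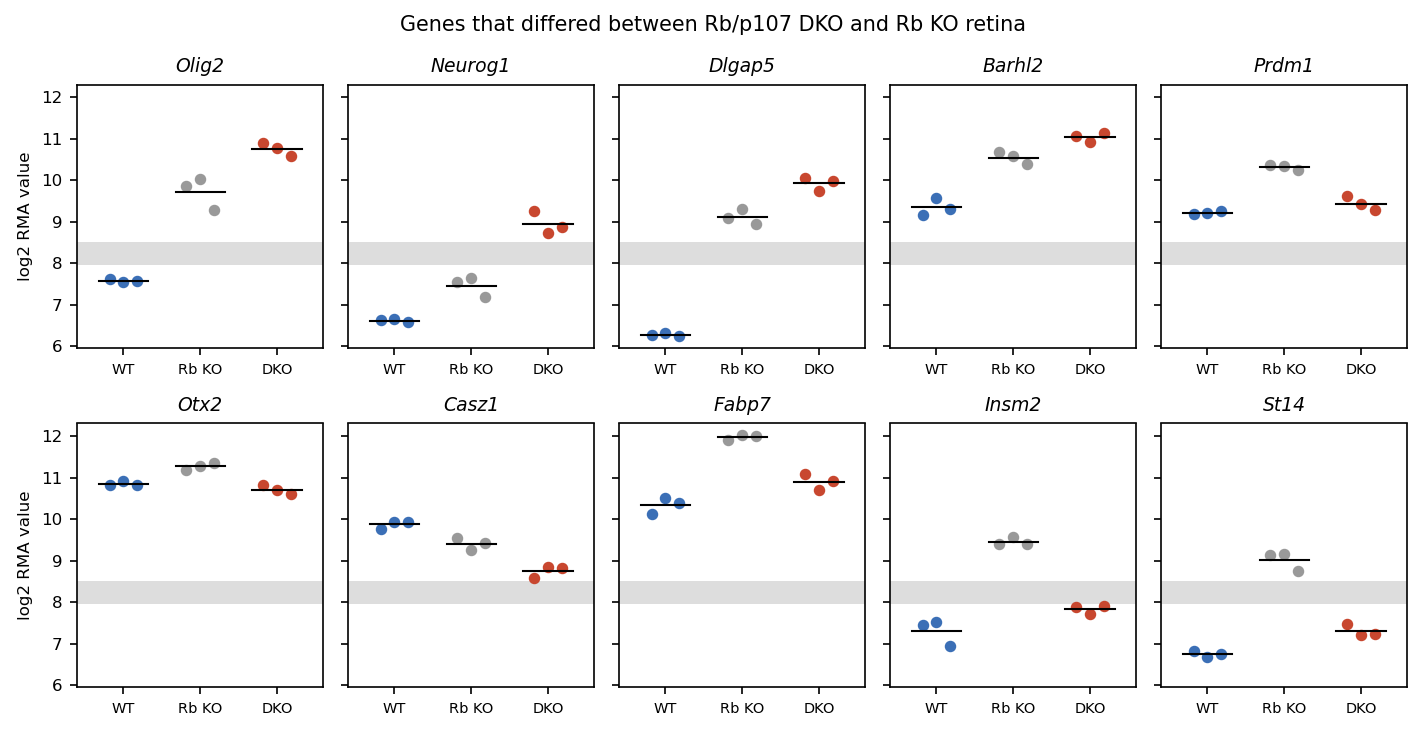
Points are the log2 RMA values (y axis) of the WT, Rb KO and Rb/p107 DKO arrays (x axis) for 10 genes called between DKO and Rb KO, bars are group means and the grey band spans the background levels, 7.94 to 8.50. Olig2, Neurog1, Dlgap5 and Barhl2 have DKO arrays above Rb KO arrays, and the other 6 genes the reverse, as in Prdm1 with 9.27 to 9.61 in DKO and 10.24 to 10.36 in Rb KO.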

How the data were processed

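Total RNA of dissected retinas was labelled with biotin and hybridised to an Affymetrix whole-transcript array, 1 colour, 1 array per sample, per the labels' protocols. The deposited values are log2 signals summarised by the authors with RMA, as the submitters' processing notes name it. The software version and genome build are not given in the sources used here. Of 59649 probe sets, 26476 had no gene symbol, 1795 had several and 24646 had exactly 1, and 6732 were controls, of which 5222 were negative. The brightest probe set stood for a gene, which left 24259 genes. Of these, 24007 were found in the RefSeq gene table, which updated 658 symbols.

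Each gene was fitted with limma 3.58.1 in R 4.3.3 over the 9 arrays and 3 groups, with p-values adjusted by Benjamini-Hochberg over all genes and a threshold of 0.05. The scripts were tested on simulated data. The number of arrays limits the precision. The 35 gene lists and the comparisons were chosen with earlier results of these data known. Of 938 listed genes, 670 were measured, and 187 of the others lie on chromosomes 1 to 3.

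Named genes were Rb1 and its relatives, the 10 largest rises and falls of detected genes and the 10 largest by bound, and up to 4 members per list and direction with the lowest p. Predicted genes were left out. Lists of at most 20 measured genes could be named in full. Cdc6, Cdk1, Cngb1, Aipl1, Rgs9bp and Rpa1 were named after their values had been seen. For DKO against Rb KO the called list members and the largest changes were named. The alternatives were a filter on dim genes, other probe set, variance, normalization and array choices, a covariate for control separation, a 2-fold minimum, a replicate block and leaving out each array. Python 3.11.15, numpy 2.4.6, pandas 2.3.3 and matplotlib 3.10.9 were used.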

Additional observations from a re-analysis of the deposited data

How the results depend on the processing

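With 3 arrays a group the precision was limited, and levels under the negative controls had no measured size. The called genes between DKO and WT numbered 7113, 4330 with only genes above the negative controls in at least 3 of 9 arrays and 955 with a 2-fold minimum, and from 4911 to 7867 when each array was left out in turn. The higher calls were 551 with the 2-fold minimum and from 2203 to 3163 without single arrays. The lower calls were 2238 with the dim filter, 2500 with the control covariate, 404 with the 2-fold minimum and from 2708 to 4704 without single arrays. Between DKO and Rb KO the calls were 116 with the 2-fold minimum and from 253 to 859 without single arrays. The replicate block gave 6666 calls between DKO and WT, 2805 higher and 3861 lower, and 501 between DKO and Rb KO, although the numbers do not pair the arrays, since same-numbered DKO and WT arrays had deviations that correlated at 0.08, -0.02 and -0.13. Apart from the 2-fold minimum, which is a stricter rule, and the dim filter, which tested fewer genes, the cause was not tested. Rb1 turned to 0.742 with the mean of its probe sets, because the 2 dim probe sets had positive differences, 0.35 (not called) and 2.23. The naming rule allowed 258 genes called between DKO and WT, not all of which are named above. Of these 258, 211 kept their call and direction in every alternative fit that tested them. Of 66 between DKO and Rb KO, 27 did. Genes that the dim filter removed were not counted as lost there, and the 2-fold minimum was not applied to these genes.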

Other observations

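The 5 genes below, picked after their values had been seen, had their highest DKO value in replicate 3. The share of all genes with that order was not counted. Replicate 3 also had the highest DKO mean of several lists, the amacrine, ganglion cell, Müller glia and microglia lists among them. Fezf1, a zinc finger factor of forebrain development, read 8.25, 7.97 and 9.58 in DKO and 8.04, 8.46 and 8.06 in WT. Gpnmb, a glycoprotein of pigment cells and phagocytes, read 8.66, 7.36 and 9.57 in DKO and 7.21, 7.40 and 7.53 in WT. Atoh7, the factor that makes progenitors competent for the ganglion cell fate, read 6.66, 6.26 and 7.50 in DKO, all below background, and 6.07, 6.01 and 5.97 in WT, a difference of 0.79 (adjusted p = 0.0284 in limma) with no measured size. Serpina3n, an acute-phase protein of reactive glia, read 7.28, 7.51 and 8.75 in DKO and 6.75, 8.59 and 8.19 in WT, so its WT arrays were as widely spread. Gfap was 8.52 in DKO replicate 3 and 7.94 and 7.85 in the other DKO arrays.

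Among genes above background on all DKO and WT arrays, the 3 with the largest rise were the predicted genes Gm13167, Gm13237 and Gm13232, which the naming rule leaves out. Gm13167 read 9.48, 9.645 and 9.48 in WT and 12.39, 12.14 and 12.24 in DKO, a rise of 2.72 (adjusted p = 3.75e-08 in limma). Probe sets of near-identical genes can read the same transcripts, and whether these 3 do was not tested.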
